A study of Mus musculus with 11 samples.

Results

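The iron uptake and storage genes described here are 9 genes of 55414 in the deposited gene table, taken by name from a list of iron handling genes: Tfrc, Slc11a2, Slc40a1, Fth1, Ftl1, Hmox1, Aco1, Ireb2 and Fbxl5. No measured value entered the list, though it was chosen with earlier results of these data known. All 9 were found by Ensembl identifier and all 9 passed the filter on low counts that left 22238 genes for testing. Slc40a1 passed it with 0 to 1244 counts per library.

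The cells were mouse CD8+ T cells of OT-I genotype, which carry a transgenic T cell receptor that recognises an ovalbumin peptide. The groups compared at 12 h were untreated cells, called naive here (n = 4), cells given DMSO and stimulated with N4, the ovalbumin peptide itself (stimulated, n = 4), and cells given Torin, an inhibitor of the kinase mTOR, and the same stimulation (Torin, n = 3). Libraries carry the numbers 1 to 4, and no Torin library numbered 2 was analysed here. The labels do not say whether the libraries of a group came from separate mice or cultures, so p-values measure the spread between these libraries, which may be technical.

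Cells take up transferrin-bound iron through the transferrin receptor, encoded by Tfrc, and the divalent metal transporter encoded by Slc11a2 carries the released iron from endosomes into the cytosol. Surplus iron is stored inside a shell of ferritin heavy chains (Fth1) and light chains (Ftl1) or exported through ferroportin (Slc40a1), and haem oxygenase 1 (Hmox1) frees iron from haem. When iron is scarce, the iron regulatory proteins encoded by Aco1 and Ireb2 bind hairpins called iron-responsive elements in the untranslated regions of these mRNAs, where they protect Tfrc mRNA from decay and block translation of ferritin mRNA. Fbxl5 encodes the iron-sensing part of a ubiquitin ligase that removes the Ireb2 product. Dividing lymphocytes depend on transferrin receptor uptake, and CD8+ T cells raise the receptor on activation.

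The elements are shown first because they are the parts of these mRNAs that iron regulatory proteins are known to bind. Capitals mark the 6-base loop, and the runs are 29 bases long, 5′ to 3′, from GENCODE M21 transcripts on build GRCm38, which differs from the build of the count tables.
Tfrc element 1: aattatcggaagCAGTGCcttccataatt
Tfrc element 2: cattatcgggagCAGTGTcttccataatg
Tfrc element 3: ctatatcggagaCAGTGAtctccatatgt
Tfrc element 4: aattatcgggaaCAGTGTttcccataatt
Fth1: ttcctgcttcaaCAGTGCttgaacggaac
Ftl1: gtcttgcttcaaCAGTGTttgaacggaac
Slc40a1: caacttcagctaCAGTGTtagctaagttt
Slc11a2: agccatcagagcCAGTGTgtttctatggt
The 4 Tfrc elements printed are those that matched the search described below, which would miss an element of another form. They lie in the 3′ untranslated region, on the plus strand of chromosome 16. The first is at chr16:32631219-32631247 and the last at chr16:32631710-32631738. The Fth1 element (chr19:9982732-9982760, plus strand), the Ftl1 element (chr7:45459779-45459807, minus strand) and the Slc40a1 element (chr1:45925465-45925493, minus strand) lie in 5′ untranslated regions. The Slc11a2 run (chr15:100395153-100395181, minus strand) lies in the 3′ untranslated region of only 1 of its 8 transcripts in the tables.

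The search took a C, then 5 bases, CAGTGN and 5 bases, with all 5 base pairs of the upper stem formed, on the transcript strand alone. It matched 890 of 141767 reference transcripts, or 0.628%. Tfrc, Fth1, Ftl1 and Slc40a1 had a full match. Slc11a2 matched only when 1 unpaired position was allowed, a looser motif held by 5.16% of transcripts. Neither form was found in Aco1, Ireb2, Fbxl5 or Hmox1. A match is a description of the letters and not evidence that the site is bound.

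Depth and cell content come before the results because they bear on ferritin, Hmox1 and Slc40a1. Total estimated counts ranged from 241865667 to 405884097 per library. Levels below are in CPM, counts scaled to a common library total after TMM scaling of library sizes. The 8 markers of CD8+ T cells were present in every library, at a summed 5560 to 7050 CPM in naive, 4244 to 4410 CPM in Torin and 2524 to 3189 CPM in stimulated libraries. Of these 8, 6 fell in stimulated against naive cells, and 2 rose in Torin against stimulated cells. Transcripts of other cells stood out in naive 2 and stimulated 2. Summed over 12 granulocyte markers, naive 2 held 8597 CPM and stimulated 2 held 2071 CPM, against at most 177 CPM in any other library. Monocyte and macrophage markers other than Ly6c2, which CD8+ T cells also express and which was left out after its values were seen, summed to 2174 CPM in naive 2 and to between 132 and 225 CPM in the other naive libraries. The same 12 markers summed to between 8.74 and 93.6 CPM in stimulated libraries and to between 13.5 and 17.2 CPM in Torin libraries. Erythroid markers, mostly globins, summed to between 141 and 690 CPM with overlapping groups, while Alas2, the erythroid haem synthesis gene, reached at most 1.01 CPM. B cell markers summed to between 13243 and 47396 CPM in the libraries numbered 4 of all 3 groups and to at most 367 CPM elsewhere. Results on these members are therefore given with and without the libraries numbered 2.

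After 12 h of stimulation the receptor for iron uptake was higher and the storage genes were lower than in naive cells. Tfrc rose, Slc11a2 and both ferritin genes fell, and the regulators Aco1, Ireb2 and Fbxl5 did not pass the test. In stimulated against naive cells 4 of the 9 genes passed an adjusted p of 0.05 in edgeR's quasi-likelihood test, 1 higher and 3 lower, beside 39.5% of all genes tested (19.2% higher and 20.2% lower). The share of members is thus near that of all genes. In these 4 genes the naive and stimulated libraries did not overlap, which was so for 41.5% of all genes. The median log2 change of the 9 was -1.23, beside -0.22 over all genes. It includes Slc40a1, which was at or close to 0 in most libraries. Without Slc40a1 the median of the members lies between the changes of Slc11a2 (-1.23) and Fbxl5 (-0.23). Without TMM scaling the median over all genes was -0.705 and 28.5% of all calls were higher, against 48.7% with it. The same 4 members passed without that scaling, joined by Hmox1. Without the libraries numbered 2, 5 members passed, the fifth being Slc40a1.

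**Figure D1:**
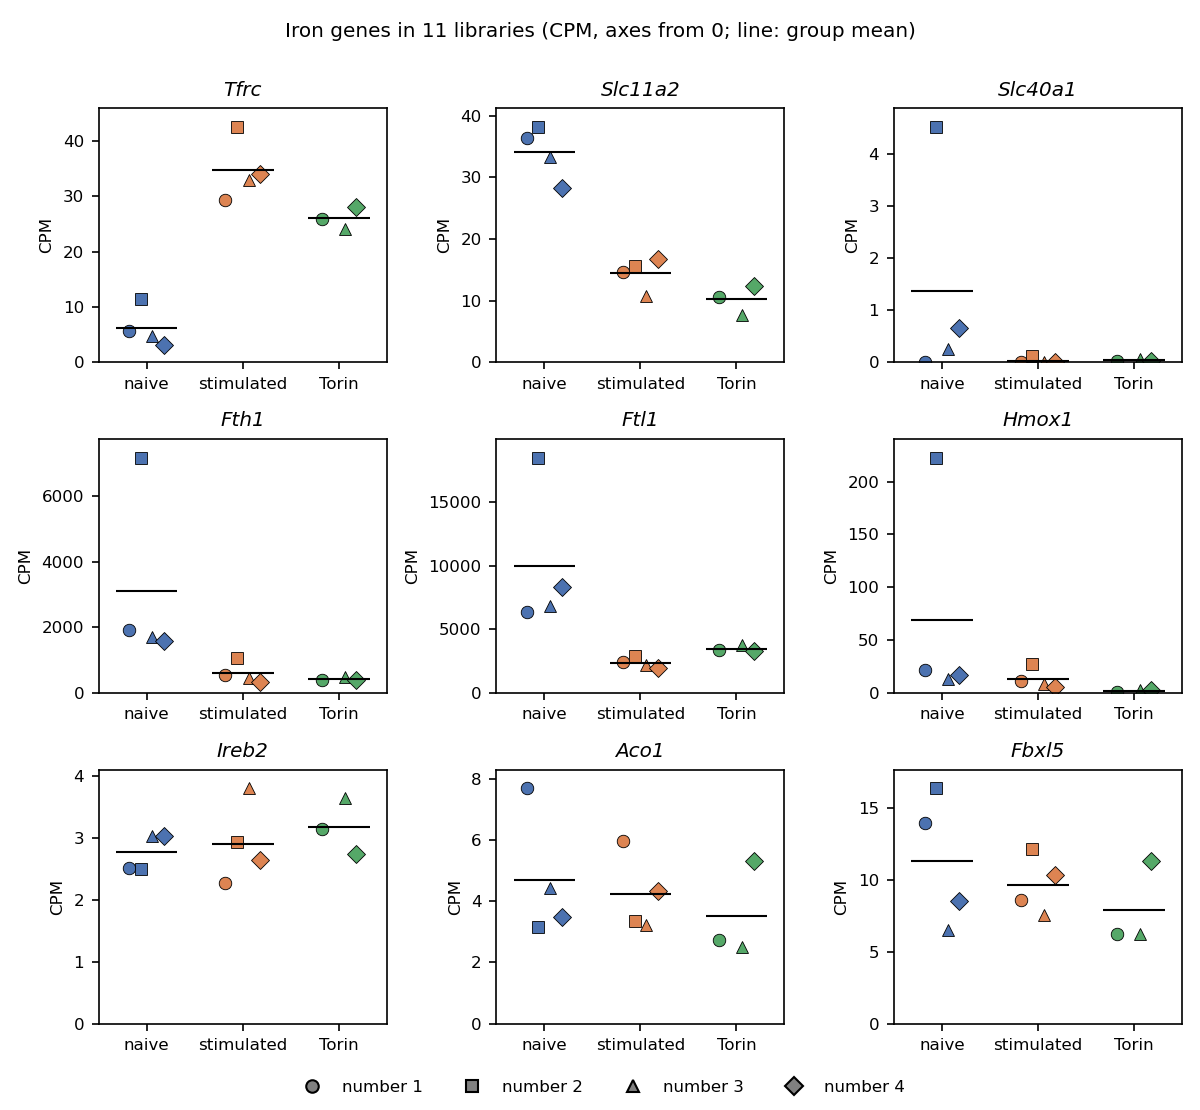
Level of each iron gene in each of 11 libraries, in CPM on linear axes that start at 0, by group; marker shape gives the library number and the line the group mean. Tfrc is higher and Slc11a2, Fth1 and Ftl1 are lower in every stimulated library than in every naive one, and naive 2 stands apart for Fth1, Ftl1, Hmox1 and Slc40a1.

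Tfrc, the receptor for transferrin, stood at 5.63, 11.4, 4.80 and 3.16 CPM in naive libraries 1 to 4. Stimulated libraries 1 to 4 held 29.3, 42.5, 33.0 and 34.1 CPM. The lowest stimulated library was above the highest naive library. The log2 change was 2.47 ± 0.34 (SE), with an adjusted p of 0.000187 in edgeR, and Tfrc was higher in stimulated cells in 4 of 4 library numbers. Without the libraries numbered 2 the log2 change was 2.83 (adjusted p = 0.000163 in edgeR).

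Slc11a2, the transporter that moves iron out of the endosome, changed the other way. It stood at 36.4, 38.2, 33.3 and 28.4 CPM in naive libraries and at 14.7, 15.6, 10.8 and 16.8 CPM in stimulated libraries. All stimulated libraries lay below all naive libraries, and the spread within each group was small. This was a log2 change of -1.23 ± 0.19 (SE), with an adjusted p of 0.000428 in edgeR. In the 4 libraries of numbers 3 and 4 among these groups, whose names start with S, the log2 change was alike at -1.16 but did not pass (adjusted p = 0.0625 in edgeR).

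Slc40a1, the only known cellular iron exporter, was barely detected. Naive libraries 1 to 4 held 0, 4.51, 0.264 and 0.654 CPM, and stimulated libraries held 0, 0.129, 0 and 0 CPM. Torin libraries 1, 3 and 4 held 0.0194, 0.0704 and 0.0202 CPM. The level above 1 CPM was thus seen in naive 2 alone, which was also the library with the most granulocyte and macrophage transcripts. Macrophages of the splenic red pulp, which recycle iron from red cells and express ferroportin strongly, left little trace: their 8 markers summed to 7.74 CPM in naive 2 and to at most 10.1 CPM in any library, and Cd163 was at 0 in naive 2 and in every stimulated and Torin library. Stimulated against naive cells did not pass for Slc40a1 (adjusted p = 0.0754 in edgeR), but passed with the library number as a block (adjusted p = 0.014) and in DESeq2 (adjusted p = 0.012, against 0.0349 without naive 1, 0.0224 without stimulated 2 and 0.0365 without the libraries numbered 2 in edgeR). It did not pass without naive 2 (adjusted p = 0.287 in edgeR), nor with the block and without the libraries numbered 2 (adjusted p = 0.0776). No fold change is given because most libraries were at or close to 0.

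Fth1, the ferritin heavy chain that oxidises iron for storage, stood at 1932, 7175, 1702 and 1598 CPM in naive libraries. Stimulated libraries held 543, 1075, 462 and 340 CPM. The groups did not overlap, and naive 2 was far above the other naive libraries. The log2 change was -2.36 ± 0.53 (SE), with an adjusted p of 0.00446 in edgeR. Without the libraries numbered 2 it was -1.96 (adjusted p = 0.000257 in edgeR), and without naive 2 alone -1.53 (adjusted p = 0.00465 in edgeR).

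Ftl1, the light chain that helps iron to mineralise inside the shell, stood at 6370, 18469, 6793 and 8334 CPM in naive libraries and at 2430, 2908, 2160 and 1955 CPM in stimulated libraries. Here too the groups did not overlap and naive 2 was highest. That gave a log2 change of -2.08 ± 0.32 (SE), with an adjusted p of 0.000393 in edgeR, and -1.72 without the libraries numbered 2 (adjusted p = 0.000200 in edgeR). Processed copies of Ftl1 make this value partly uncertain, since reads can be split between them. The copies Ftl1-ps1, Ftl1-ps2 and Ftl2-ps together held 4.87% to 5.72% of the counts of Ftl1 and its copies in each library. Their log2 changes were -2.13, -2.21 and -2.08. The 11 other genes and pseudogenes whose symbols start with Fth held at most 0.0975% of the Fth counts.

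Markers of myeloid cells, which are rich in ferritin, were lower in stimulated than in naive libraries in each of the 4 numbers. Of the 13 monocyte and macrophage markers, here with Ly6c2, which CD8+ T cells also express, 6 fell and none rose. Of the 12 granulocyte markers 3 fell and none rose. These counts stand beside 20.2% lower among all genes. Of the 5 platelet and megakaryocyte markers 4 fell, from a summed 188 to 696 CPM in naive libraries to 69.9 to 161 CPM in stimulated libraries. Markers of CD8+ T cells fell too, as given above. Among the libraries numbered 1, 3 and 4, Lyz2, the myeloid lysozyme, stood at 96.7 to 176 CPM in naive cells and at 4.26 to 11 CPM in stimulated cells. The part of these transcripts in the ferritin change was not tested. In bulk RNA, fewer cells of a type and less RNA per cell cannot be told apart.

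**Figure D2:**
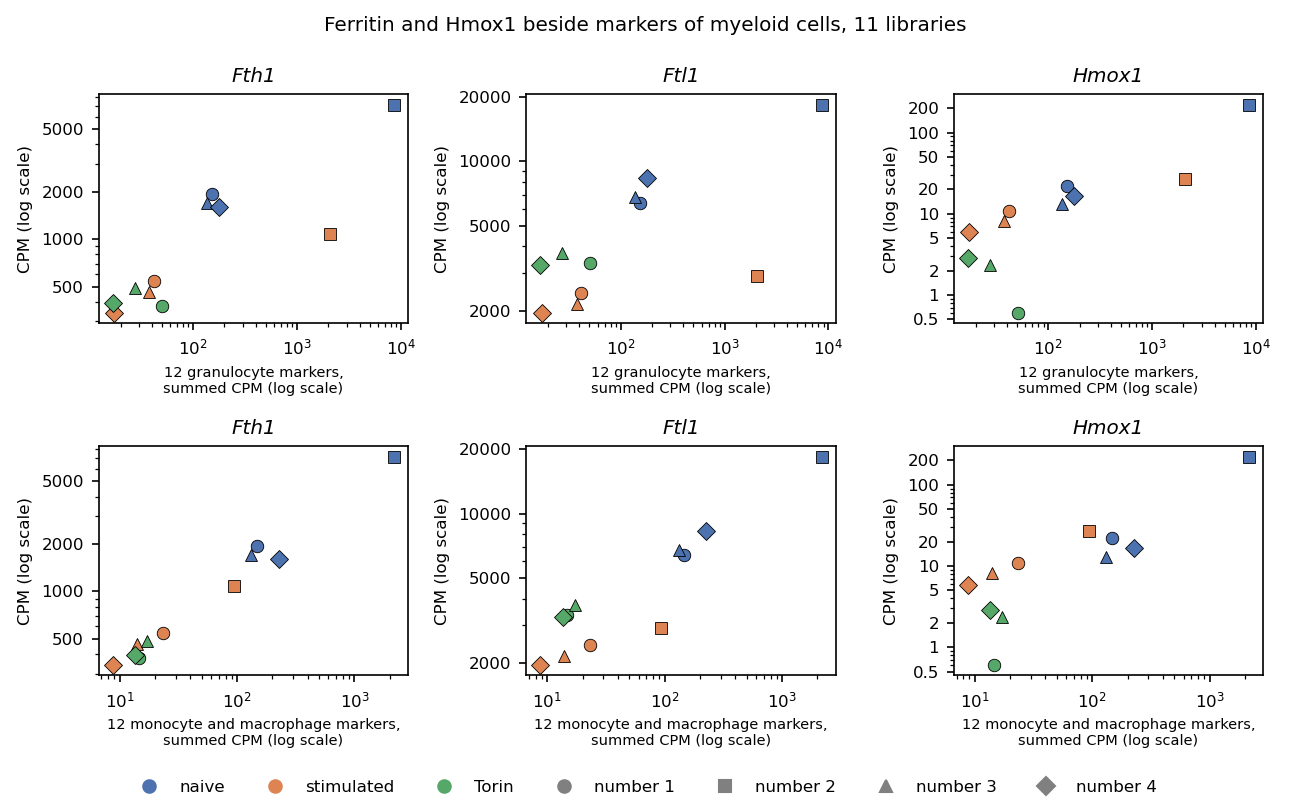
CPM of Fth1, Ftl1 and Hmox1 (y, log scale) in each of 11 libraries against the summed CPM of 12 granulocyte markers (top, x, log scale) and of 12 monocyte and macrophage markers other than Ly6c2 (bottom); colour gives the group and shape the number. Naive 2 has the highest value on every axis, and stimulated 2, with 2071 CPM of granulocyte markers, stays below all naive libraries for Fth1 and Ftl1.

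Hmox1, the haem-degrading enzyme that is induced by haem and oxidative stress, stood at 22.1, 223, 13.1 and 16.7 CPM in naive libraries. Stimulated libraries held 10.9, 27.0, 8.16 and 5.91 CPM. It was lower in stimulated cells in 4 of 4 numbers, but stimulated 2 was above every naive library but naive 2, so the groups overlapped. The log2 change was -2.40 ± 0.96 (SE) and did not pass (adjusted p = 0.0690 in edgeR). Without naive 2 it was -0.42 (adjusted p = 0.622 in edgeR) and without the libraries numbered 2 -1.06 (adjusted p = 0.143 in edgeR). The 2 libraries with the most granulocyte transcripts were also the 2 with the most Hmox1, and that part was not tested. The call passed without naive 3, naive 4 or stimulated 2 (adjusted p = 0.0441, 0.0481 and 0.05 in edgeR). It also passed among genes with a mean of at least 5 CPM (adjusted p = 0.0333) and, at -1.08, in the libraries with prefix S alone (adjusted p = 0.0469), which hold neither naive 2 nor stimulated 2.

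The regulators were expressed at low levels that overlapped between groups in CPM. Ireb2, which encodes iron regulatory protein 2, stood at 2.51, 2.5, 3.04 and 3.02 CPM in the libraries without treatment and at 2.27, 2.93, 3.80 and 2.64 CPM in stimulated libraries. Its log2 change was 0.07 ± 0.22 (SE). Its sign turned when library sizes were not scaled by TMM, to -0.44 (adjusted p = 0.101 in edgeR).

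Aco1, which encodes iron regulatory protein 1 and, with an iron-sulfur cluster bound, the cytosolic aconitase, stood at 7.70, 3.17, 4.44 and 3.49 CPM in naive and at 5.97, 3.36, 3.23 and 4.34 CPM in stimulated libraries. Number 1 was highest in both groups. Its log2 change was -0.15 ± 0.36 (SE). Fbxl5 stood at 13.9, 16.4, 6.50 and 8.52 CPM in naive and at 8.61, 12.2, 7.59 and 10.3 CPM in stimulated libraries, a log2 change of -0.23 ± 0.32 (SE). Neither passed (adjusted p = 0.770 for Aco1 and 0.608 for Fbxl5 in edgeR). With errors of this size a small change in these 3 genes was not detectable.

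Torin against stimulated cells compares cells given the same peptide with and without the mTOR inhibitor. No group had Torin alone, so a changed response to the peptide and other effects of Torin cannot be told apart. In that comparison 0 of the 9 genes passed the adjusted test in edgeR, beside 4.62% of all genes (2.32% higher and 2.3% lower). At an unadjusted p under 0.05 there were 2, Slc11a2 and Hmox1, and DESeq2 called 0, with no adjusted p for Hmox1. The median log2 change of the 9, with Slc40a1 included, was -0.29, beside -0.02 over all genes. For 3 members, Tfrc, Ftl1 and Hmox1, the Torin and stimulated libraries did not overlap, as was the case for 19.7% of all genes. Leaving out naive 2, which enters through the shared fit and the filter on low counts, brought the count to 1, Hmox1.

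Tfrc stood at 26.0, 24.0 and 28.1 CPM in Torin libraries 1, 3 and 4, just under the lowest stimulated library at 29.3 CPM. The log2 change was -0.42 ± 0.35 (SE), with an adjusted p of 0.581 in edgeR. All 3 Torin libraries were far above the naive libraries. The level of Tfrc under Torin was 26.0 ± 2.06 CPM (SD, n = 3), beside 34.7 ± 5.58 CPM (SD, n = 4) in stimulated and 6.25 ± 3.6 CPM (SD, n = 4) in naive cells.

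Slc11a2 stood at 10.6, 7.69 and 12.4 CPM with Torin. It was lower than in the stimulated library of the same number in 3 of 3 numbers, but the groups overlapped. This was a log2 change of -0.50 ± 0.21 (SE), with an unadjusted p of 0.0346 and an adjusted p of 0.208 in edgeR.

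The 2 ferritin chains differed in their values under Torin. Ftl1 stood at 3357, 3735 and 3287 CPM, above all 4 stimulated libraries. Its log2 change was 0.55 ± 0.33 (SE) and did not pass (adjusted p = 0.396 in edgeR, 0.0879 with the number as a block and 0.0807 without the libraries numbered 2). Fth1 stood at 379, 487 and 396 CPM, within the range of the stimulated libraries. Its log2 change was -0.52 ± 0.55 (SE, adjusted p = 0.677 in edgeR), and -0.09 without the libraries numbered 2. Per length of transcript, Fth1 stood at 0.0882, 0.100 and 0.0944 of the level of Ftl1 in Torin libraries, at 0.172, 0.280, 0.161 and 0.128 in stimulated libraries, and at 0.237, 0.300, 0.196 and 0.151 in naive libraries. The ratio in each Torin library was thus below that in each other library. Summed markers other than Ly6c2 of monocytes and macrophages overlapped between Torin and stimulated libraries, as did granulocyte markers, at 16.8 to 50.7 CPM with Torin and 17.4 to 41.8 CPM in stimulated libraries 1, 3 and 4.

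Hmox1 stood at 0.601, 2.33 and 2.89 CPM with Torin, below the lowest stimulated library at 5.91 CPM. That gave a log2 change of -2.74 ± 1.09 (SE), with an unadjusted p of 0.0289 and an adjusted p of 0.188 in edgeR. Without the libraries numbered 2 it was -2.10 (adjusted p = 0.0842 in edgeR), and without naive 2 alone it was -2.74 and passed (adjusted p = 0.0460 in edgeR). Of the 13 monocyte and macrophage markers, here with Ly6c2, 1 fell with Torin and none rose, beside 2.3% lower among all genes. Without Ly6c2 the summed markers overlapped between Torin and stimulated libraries. None of the 12 granulocyte markers passed, and the part of all these markers was not tested.

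The regulators again overlapped between the groups in CPM. Torin libraries held 3.14, 3.64 and 2.74 CPM of Ireb2, 2.72, 2.5 and 5.30 CPM of Aco1 and 6.26, 6.21 and 11.3 CPM of Fbxl5. Their log2 changes against stimulated cells were 0.13 ± 0.24, -0.27 ± 0.39 and -0.29 ± 0.34 (SE), in that order. The adjusted p-values in edgeR were 0.851, 0.783 and 0.725.

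**Figure D3:**
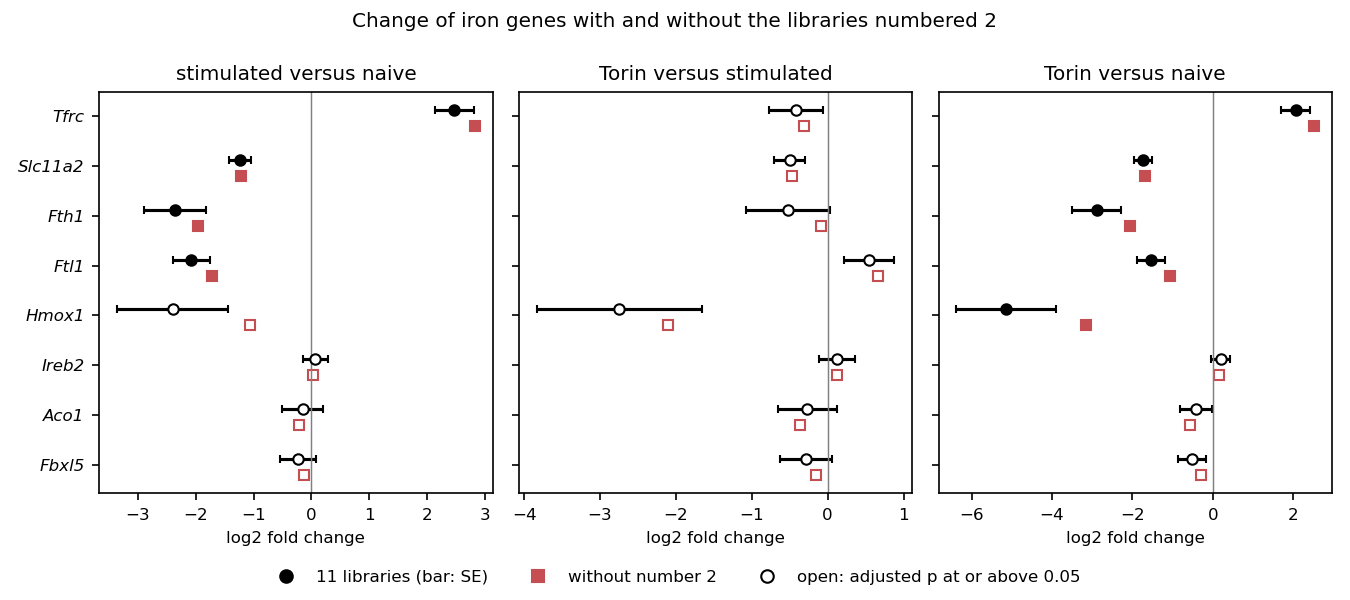
Log2 fold change of 8 iron genes in the 3 comparisons, from all 11 libraries (black circles, bars show the SE) and without the libraries numbered 2 (red squares); open symbols have an adjusted p of 0.05 or more. Tfrc, Slc11a2, Fth1 and Ftl1 keep their direction and their call against naive cells without those libraries, while the estimates of Hmox1 move toward 0. Slc40a1 is left out because most of its libraries are at or close to 0.

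Cells stimulated under Torin were also set against naive cells, which differ from them in both the peptide and Torin. No group had Torin alone, so the effects of the peptide and of Torin cannot be told apart here. This comparison shares its libraries with the other comparisons. Here 5 of the 9 genes passed in edgeR, 1 higher and 4 lower, beside 32.2% of all genes (16.4% higher and 15.8% lower). In these 5 genes the libraries did not overlap, which was so for 43.5% of all genes. The same 5 genes passed without the libraries numbered 2. The median log2 change of the 9 was -1.53, beside -0.18 over all genes. Without Slc40a1, at or close to 0 in most libraries, it lies between the changes of Ftl1 (-1.53) and Fbxl5 (-0.51). Tfrc rose by 2.06 ± 0.35 (log2, SE, adjusted p = 0.00118 in edgeR). Slc11a2 had a log2 change of -1.74 ± 0.22 (SE), with an adjusted p of 0.000191 in edgeR.

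The ferritin genes and Hmox1 were lower in Torin than in naive cells. Fth1 differed by -2.88 ± 0.61 (log2, SE; adjusted p = 0.00411 in edgeR), which was -2.06 without the libraries numbered 2. For Ftl1 the difference was -1.53 ± 0.35 (log2, SE; adjusted p = 0.00624 in edgeR) and -1.05 without the libraries numbered 2. The Ftl1 call was lost without the libraries numbered 4 (log2 change -1.45, adjusted p = 0.0581 in edgeR). Hmox1 differed by -5.14 ± 1.23 (log2, SE; adjusted p = 0.00833 in edgeR), which was -3.16 without the libraries numbered 2 (adjusted p = 0.00302 in edgeR) and did not pass without those numbered 1 (-5.01, adjusted p = 0.0508 in edgeR). DESeq2 gave -5.18 for Hmox1 with no adjusted p, and in DESeq2 Slc40a1 passed in this comparison (adjusted p = 0.0294). Beside these falls, Lyz2 stood at 3.81 to 7.93 CPM in Torin libraries and at 96.7 CPM or more in naive libraries, and its part was not tested. Ireb2, Aco1 and Fbxl5 had log2 changes of 0.20, -0.42 and -0.51 and did not pass.

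Levels can be set side by side between genes only per length. In TPM, which scales the counts of the transcript table by transcript length to a common total, the ferritin chains were by far the most abundant members in naive cells, at 12003 ± 6315 TPM for Ftl1 and 2917 ± 2382 TPM for Fth1 (SD, n = 4). Hmox1 followed at 47.2 ± 68.7 TPM and Slc11a2 at 12.7 ± 3.41 TPM, whose libraries overlapped. Below them came Fbxl5 at 4.60 ± 2.33, Tfrc at 1.82 ± 1.01, Aco1 at 1.48 ± 0.930, Ireb2 at 0.600 ± 0.0980 and Slc40a1 at 0.443 ± 0.665 TPM. Among these neighbours, Fbxl5 overlapped with Tfrc, Tfrc with Aco1, and Ireb2 with Slc40a1. Without naive 2 the naive means were 8866 TPM for Ftl1, 1747 TPM for Fth1, 12.9 TPM for Hmox1, 12.5 TPM for Slc11a2 and 0.114 TPM for Slc40a1, so that Hmox1 and Slc11a2 were level and Slc40a1 lay below Ireb2 with no overlap.

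The uptake genes changed places on stimulation. Tfrc was below Slc11a2 in naive cells, at 0.597 to 3.07 TPM against 8.41 to 16.7 TPM. In stimulated cells it was above, at 5.57 to 8.42 TPM against 2.1 to 4.23 TPM. With Torin it was also above, at 5.66 to 5.78 TPM against 2.07 to 3.34 TPM. Among the regulators, Ireb2 stood at 0.511 to 0.699 TPM in naive and at 0.365 to 0.431 TPM in stimulated cells, without overlap. In Torin cells Ireb2 stood at 0.434 to 0.585 TPM. TPM is not scaled by TMM, and these differences in TPM were not tested. In stimulated cells Ftl1 still stood at 1954 ± 513 TPM and Fth1 at 380 ± 221 TPM (SD, n = 4), and in Torin cells Ftl1 stood at 3144 ± 233 TPM and Fth1 at 297 ± 40.3 TPM (SD, n = 3). The Fth1 value per length rests on how the authors' software assigned reads: transcripts annotated as retaining an intron took 74.5% to 88.4% of the Fth1 counts in each library, and the main coding transcript took 7.36% to 23.0%.

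Slc11a2 is known to be made with and without an iron-responsive element in its 3′ untranslated region. Of its 8 transcripts in the table, 1 holds the run printed above, and a shorter coding transcript does not. The shorter one took 87.4% to 96.2% of the counts in each library. The transcript with the run held 6.31%, 4.74%, 3.63% and 3.6% in naive libraries 1 to 4. In stimulated libraries 1 to 4 it held 4.31%, 8.61%, 3.96% and 4.04%, and in Torin libraries 1, 3 and 4 it held 9.28%, 9.46% and 12.5%. All Torin libraries were above all other libraries.

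The mean share was 10.4% ± 1.80 (SD, n = 3) with Torin, 5.23% ± 2.26 (SD, n = 4) in stimulated and 4.57% ± 1.28 (SD, n = 4) in naive cells. Torin and stimulated cells differed by 5.18 percentage points (two-sided exact permutation test, p = 0.0571, n = 3 and 4), and so did Torin and naive cells, by 5.84 points (p = 0.0571 in the same exact test). That is the smallest p that 3 against 4 libraries allow in this test. Stimulated and naive cells differed by 0.659 points (two-sided exact permutation test, p = 0.686), and the sign turned to -0.466 points without stimulated 2. The longer transcript has more bases for reads to fall on, so its share of molecules is lower: per length the Torin libraries held 6.49% to 8.85%. Estimated counts of this transcript were 89 to 1080 per library. The share says nothing of the total Slc11a2 level, which overlapped between Torin and stimulated libraries.

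**Figure D4:**
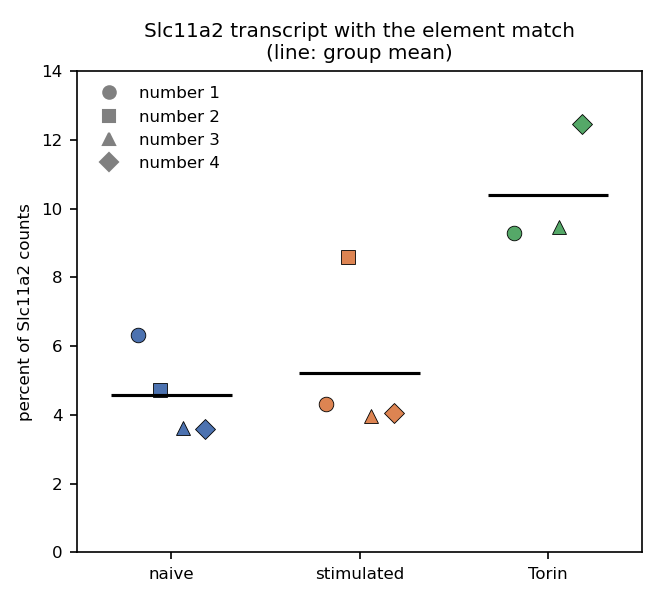
Percent of the Slc11a2 counts that were assigned to the transcript with the loose element match, in each of 11 libraries by group (linear axis from 0); shape gives the library number and the line the group mean. The 3 Torin libraries lie between 9.28% and 12.5%, above the highest other library, stimulated 2, at 8.61%.

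For Slc40a1 the shares of transcripts were not tested because its level was under 1 CPM in the stimulated and Torin groups. Among the Tfrc counts, 92.9% to 99.6% fell on transcripts with the elements.

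Likeness was ranked among 5657 other genes with a symbol and a mean of at least 10 CPM. Predicted genes, with Gm or Rik symbols, were left out. Closest to Tfrc in log2 CPM over the 11 libraries were Psma4 and Psma5, which encode proteasome subunits (Pearson r = 0.983 and 0.981). Gusb, Rabggtb and Srsf3 followed (0.976 each). Those closest to Fth1 were Ninj1 and Lyz2 (0.985 each), Spi1, the myeloid transcription factor PU.1 (0.978), Slc7a11, the cystine transporter (0.962), and Slc31a2 (0.960). The 11 libraries fall into the 3 groups, so these values describe the differences between groups and libraries and have no test. The genes closest to Fth1 were, like it, highest in naive 2: Lyz2 stood at 1773 CPM there and Spi1 at 113 CPM.

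Other genes of iron and haem handling were read from lists. Their counts for stimulated against naive cells stand beside 19.2% of all genes higher and 20.2% lower. Those for Torin against stimulated cells stand beside 2.32% higher and 2.3% lower. With lists of 7 to 18 tested genes, nothing is read from these shares about a list. Among 18 tested genes of iron entry, reduction and release from stores, 3 rose and 3 fell in stimulated against naive cells. Pcbp1, which encodes a chaperone that delivers iron to ferritin, stood at 147 to 274 CPM in naive and 431 to 479 CPM in stimulated libraries and rose by 1.19 on the log2 scale (adjusted p = 0.000247 in edgeR). Slc39a14, a transporter of zinc and iron, rose by 0.92 (log2, adjusted p = 0.0165 in edgeR), and Mcoln1, an endolysosomal cation channel, had a log2 change of -1.19 (adjusted p = 0.00522 in edgeR). Ncoa4, the receptor that takes ferritin to lysosomes, had a mean of 12.2 ± 2.07 CPM (SD, n = 4) before and 17.1 ± 3.59 CPM (SD, n = 4) after stimulation and did not pass (log2 change 0.50, adjusted p = 0.0740 in edgeR), though it passed in DESeq2 and with the number as a block. Between Torin and stimulated cells no gene of this list passed in edgeR, 2 had an unadjusted p under 0.05, and Ncoa4 had a log2 change of -0.53 (adjusted p = 0.205).

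In the lists of iron-sulfur cluster assembly most genes did not pass. In stimulated against naive cells 6 of 17 mitochondrial genes rose and 2 fell, with a median log2 change of 0.26, and 5 of 11 cytosolic genes rose and none fell, with a median of 0.40, beside -0.22 over all genes. The remaining 9 mitochondrial and 6 cytosolic genes did not pass. Bola2, an iron chaperone that works with Glrx3, rose from 311 ± 53.3 to 1595 ± 335 CPM (SD, n = 4 each; log2 change 2.36, adjusted p = 9.89e-06 in edgeR). Glrx3 rose from 36.1 ± 8.98 to 124 ± 13.7 CPM. Hspa9, the mitochondrial chaperone of cluster transfer, rose from 22.2 ± 7.75 to 119 ± 10.9 CPM, and Nfs1, the cysteine desulfurase that supplies the sulfur, from 16.9 ± 4.77 to 55.4 ± 7.36 CPM. Slc25a28, a mitochondrial iron importer, and Hscb, the partner of Hspa9, had log2 changes of -1.19 and -1.17.

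Under Torin, Bola2, Glrx3 and Hspa9 were above naive cells, with log2 changes of 1.83, 1.49 and 1.86, and passed in edgeR. Against stimulated cells no mitochondrial gene passed in edgeR, with 5 at an unadjusted p under 0.05, and 1 cytosolic gene did. That was Ndor1, a reductase of cytosolic cluster assembly, with a log2 change of 1.07 (adjusted p = 0.0276 in edgeR). Its call was lost when any of stimulated 2, stimulated 4 or the Torin libraries was left out.

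**Figure D5:**
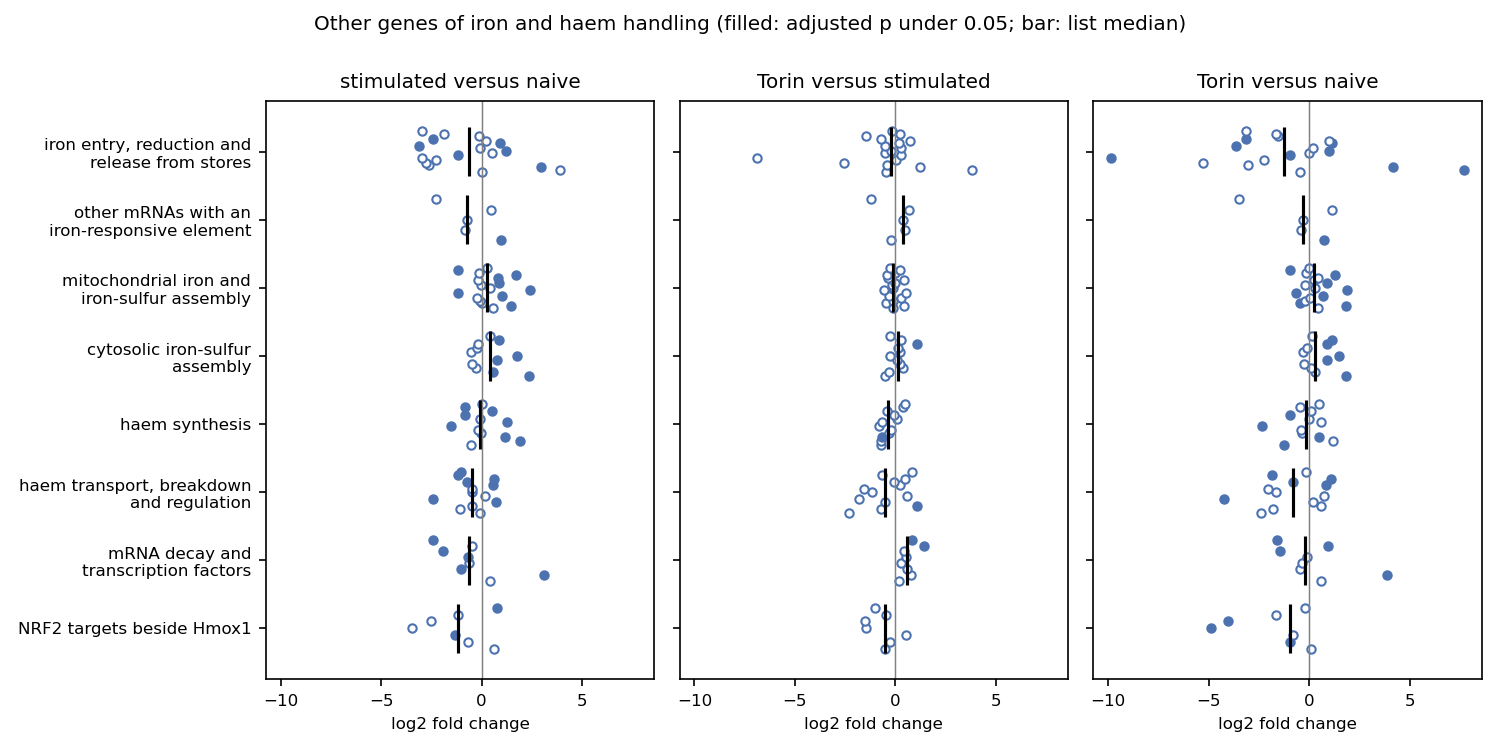
Log2 fold change of each tested gene of 8 lists of iron and haem handling in the 3 comparisons; filled points have an adjusted p under 0.05 and bars mark the list median. Between Torin and stimulated cells 5 points are filled, and most filled points lie in the 2 comparisons with naive cells.

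Among 12 haem synthesis genes 4 rose and 3 fell. Fech, which inserts iron into haem, had a log2 change of -1.51 (adjusted p = 0.0296 in edgeR), lost when naive 1, naive 3 or stimulated 4 was left out. Alad, an early enzyme of the pathway, was the 1 gene of this list lower with Torin than in stimulated cells, at 40.9 ± 7.19 CPM (n = 3) against 64.4 ± 3.98 CPM (n = 4), with a log2 change of -0.66 (adjusted p = 0.0423 in edgeR). That call was lost in 17 of 23 alternatives, among them leaving out any Torin library, stimulated 1, 2 or 4, or naive 2 or 3.

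Among 13 genes of haem transport, breakdown and haem-sensitive regulation, 3 rose and 4 fell on stimulation. Nfe2l2, which encodes NRF2, a factor that switches on Hmox1 and ferritin genes, went from 27.9 ± 5.54 CPM without treatment to 12.2 ± 2.58 CPM after stimulation (SD, n = 4 each), and its mean under Torin was 7.68 ± 0.944 CPM (n = 3). Its log2 change was -1.20 in stimulated against naive cells (adjusted p = 0.000522 in edgeR) and -1.86 in Torin against naive cells (adjusted p = 0.000135 in edgeR). Blvrb, a biliverdin reductase abundant in erythroid cells, had a log2 change of -2.44 (adjusted p = 0.0133 in edgeR) and was highest in naive 2, at 145 CPM. That change was -1.65 without naive 2, and the call was lost without the libraries numbered 1 or 4 (adjusted p = 0.0602 and 0.0670 in edgeR). Bach2, a haem-binding repressor, was higher with Torin than in stimulated cells (log2 change 1.06, adjusted p = 0.0338 in edgeR), a call lost without stimulated 2, stimulated 4, Torin 1 or Torin 3. Of 7 NRF2 targets beside Hmox1, 1 rose and 1 fell on stimulation, and 6 had an unadjusted p under 0.05 in edgeR. Their median log2 change was -1.18, beside -0.22 over all genes. In Torin against naive cells 3 of them fell and none rose, beside 15.8% lower among all genes. Among these calls, that of Gclc was lost in 15 of 23 alternatives. The Slc7a11 call was lost in 6 of 23, among them leaving out any Torin library. Slc7a11 stood at 79.5 CPM in naive 2 and at 6.80 to 7.60 CPM in naive 1, 3 and 4. On stimulation Txnrd1 had a log2 change of 0.78 (adjusted p = 0.0395 in edgeR). That call was lost in 13 of 23 alternatives, among them leaving out any of 8 single libraries. Gclm had a log2 change of -1.32 (adjusted p = 0.00545 in edgeR) and was highest in naive 2, at 71.6 CPM.

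Among 8 regulators known to act on Tfrc or ferritin mRNA, 1 rose and 4 fell in stimulated against naive cells. Myc, a transcription factor known to raise Tfrc and lower Fth1, rose from 30.1 ± 15.7 to 257 ± 14.2 CPM (SD, n = 4 each; log2 change 3.10, adjusted p = 4.81e-05 in edgeR). With Torin it stood at 433 ± 4.09 CPM (n = 3), above every stimulated library. The difference from stimulated cells did not pass in the model of all libraries (log2 change 0.75, adjusted p = 0.248 in edgeR). That difference passed when only the libraries of these 2 groups were fitted (log2 change 0.78, adjusted p = 0.0121 in edgeR). Zfp36, which encodes the mRNA decay factor tristetraprolin, had a log2 change of -1.91 (adjusted p = 0.000525 in edgeR), and Zfp36l2 one of -2.43 (adjusted p = 1.03e-05 in edgeR). Zc3h12a, which encodes Regnase-1, a nuclease that cuts Tfrc mRNA, had means of 4.58 ± 0.623 CPM (naive), 2.91 ± 0.679 CPM (stimulated) and 4.25 ± 0.407 CPM (Torin). Its log2 change on stimulation was -0.66 (adjusted p = 0.0345 in edgeR), lost in 15 of 22 alternatives, among them leaving out any Torin library, any naive library but naive 1, or stimulated 3 or 4. Between Torin and stimulated cells 2 of the 8 rose, beside 2.32% higher among all genes. Zfp36l1 rose by 1.43 (log2, adjusted p = 0.0126 in edgeR), a call lost without Torin 3. Zfp36l2 rose by 0.80 (log2, adjusted p = 0.0493 in edgeR). The Zfp36l2 call was lost in 18 of 23 alternatives, among them leaving out any single library but naive 2 or stimulated 1.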

How the data were processed

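RNA of 11 libraries was measured by poly(A) RNA sequencing. The authors deposited estimated counts per gene and per transcript, all whole numbers, so nothing was rounded. Per the submitters' processing notes, build mm39 was used, with DESeq2 1.30.1, StringTie 2.1.0, STAR 2.7.1a, R 4.0.5 and SAMtools 1.9 among the tools, with no roles given. Totals of 241865667 to 405884097 per library are larger than usual read numbers, for a reason not given in the sources used here, so counts may not be independent reads. Columns named as controls in the tables were taken as the stimulated libraries given DMSO, by their titles.

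Symbols came from GENCODE M21 (GRCm38), matched without ID versions, for 52081 of 55414 genes (94%). Of 142435 transcripts, 138292 (97.1%) matched. Genes were filtered with filterByExpr (minimum count 10) and fitted with edgeR 4.0.16 (TMM, quasi-likelihood F test, 1 model of 3 group means, common biological coefficient of variation 0.791) in R 4.3.3. p-values were adjusted by Benjamini-Hochberg over 22238 genes, with a threshold of 0.05, and the fit was tested on simulated data. Transcript shares were compared by exact permutation (scipy 1.17.1), and TPM was computed from annotated lengths. No 2 libraries were near-identical. Alternatives were DESeq2 1.42.0, library totals alone, other filters, the replicate block, prefix and left-out libraries.

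Libraries with the same number deviated together to a small degree. The correlations were 0.153 to 0.286 for stimulated against naive cells and 0.115 to 0.306 for Torin against stimulated cells. The numbers may thus pair these groups, which the main test did not use and the replicate block did. For Torin against naive cells the correlations ranged from 0.0809 to 0.276, which does not meet the minimum of 0.1 in every pair. Number 4, whose libraries held the most B cell transcripts, had the highest value in each comparison, and that part was not tested. The members and lists were chosen with earlier results of these data known. From each list the text names genes past the threshold with at least 5 CPM and among the 2 largest changes in each direction, plus Myc, Zc3h12a, Zfp36 and Ncoa4, and gives a selection of them. Some genes of these lists are not reported here.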

Additional observations from a re-analysis of the deposited data

Results flagged for a closer look

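Naive 2 stood apart from the other 3 naive libraries for 4 of the 9 genes. By the gap between the extreme library and its neighbour, relative to the range of the group (Dixon's criterion), it was separate for Fth1 at 7175 CPM, Ftl1 at 18469 CPM, Hmox1 at 223 CPM and Slc40a1 at 4.51 CPM. Stimulated 2 stood apart for Slc40a1, at 0.129 CPM, where the other 3 stimulated libraries were at 0. In all, 18 groups were checked and 5 had such a library, 4 of them naive 2. Chance flags about 1 in 20 groups only if they are independent and normally spread, which these are not. For Slc40a1 in stimulated 2, any value above 0 would have been flagged, since the other 3 libraries were at 0. Naive 2 and stimulated 2 were also the libraries with 8597 and 2071 CPM of granulocyte markers, and the part of these transcripts was not tested.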

How the results depend on the processing

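The 9 calls of members kept their direction in all 207 alternatives and passed in 203 of the 206 that gave an adjusted p (DESeq2 gave none for Hmox1 in Torin against naive cells). The 3 exceptions were Slc11a2 in stimulated against naive cells and Ftl1 and Hmox1 in Torin against naive cells, given above. With single libraries left out, the count of members called was 4 to 6 for stimulated against naive, 0 to 1 for Torin against stimulated and 5 for Torin against naive cells.

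Members that did not pass changed sign in 15 of 339 alternatives. For stimulated against naive cells, Ireb2 was at -0.44 with library totals alone, -0.0353 without the libraries numbered 3, -0.00792 with the replicate block and no number 2, and -0.00506 to 0.17 with 1 library left out. Aco1 was at -0.37 to 0.19 with 1 library left out, and Fbxl5 at 0.26 in the prefix S libraries. For Torin against stimulated cells, Fth1 was at 0.0197 with the replicate block and 0.14 with prefix S, Ireb2 at -0.0129 with prefix S, and Aco1 at 0.0992 without number 1 and 0.0429 with prefix S. For Torin against naive cells, Ireb2 was at -0.14 with library totals, Aco1 at 0.0792 without number 1 and Fbxl5 at 0.23 with prefix S.

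Among pathway genes, Ncoa4 in Torin against naive cells was at 0.0045 with only those groups, 0.10 without number 3, 0.0201 without number 4 and -0.23 to 0.11 with 1 library left out. Zc3h12a was at 0.0792 without number 4 and -0.18 to 0.0734 with 1 library left out. The 53 pathway calls were lost in 234 of the 1216 alternatives that gave an adjusted p. The cause of these changes was not tested. Without TMM scaling 67.6% of calls were higher in Torin against stimulated (50.1% with it) and 33.4% in Torin against naive cells (50.9%).

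With the library number as a block, 5 members passed in stimulated against naive cells, and the block changed no other member call. For the Slc11a2 share the paired difference was 0.659 points (exact sign-flip p = 0.625) for stimulated against naive, 6.31 (exact p = 0.25) for Torin against stimulated and 5.90 (exact p = 0.25) for Torin against naive cells. With 1 library left out, the first of these ranged from -0.466 to 1.24. The strict motif gives no value for this share. Slc40a1 was not tested at a mean of at least 5 CPM, nor with only the 2 groups of Torin against stimulated cells. Depth limits Slc40a1, with 0 to 1244 counts per library.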
